A study of Homo sapiens with 18 samples.

Results

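The collagen genes were taken as the 44 genes, of 50119 listed, whose symbol is COL, a number, A and a number. Each had 1 entry. RNA was sequenced from Saos-2, an established human osteosarcoma (OS) line that the labels give as wild type, in 18 libraries, 3 in each of 6 groups. D-2 was cells grown flat, D-3 was cells in Matrigel, and DP-3 was cells printed in a bioink of methacrylated gelatin and alginate, all after 14 days of culture. A further group, DP-3 day 1, was printed tissue after 1 day. FIT was fresh tumor tissue, grown from Saos-2 cells implanted in Matrigel under the skin of the axilla of female BALB/c nude mice aged 4 weeks and taken 2 weeks later. IT was pieces of such tumors kept for 14 days on Matrigel. The study divided excised tumors between this culture and fresh tissue, so IT and FIT libraries may share tumors. The labels do not say which libraries would. Every group came from the same line without an added gene or drug, and cells had been placed in or on Matrigel for D-3, IT and FIT. The study asked how each culture differs from tumor tissue in the animal.

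The labels do not say whether the 3 libraries of a group were separate cultures or animals, so p-values measure the spread between these libraries, which may be technical. FIT and IT also held mouse host cells, and the sources used here do not say whether mouse reads were set aside. In such bulk samples, fewer cells of a type and less RNA per cell cannot be told apart. Total estimated counts were 23721666 in FIT replicate 3 and 50327345 to 79082786 in the other 17 libraries. The defining markers of bone-forming cells were at or near 0: ALPL did not exceed 0.15 FPKM in any library, and SP7 and IBSP did not exceed 0.095 and 0.080. RUNX2 was at 0.61 to 2.41 FPKM. FPKM is the number of fragments scaled by gene length and library total, and all levels here are in this unit.

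Collagens are the main structural proteins of connective tissue and bone. Each molecule is a triple helix of chains, encoded by separate genes, that are hydroxylated and folded in the endoplasmic reticulum, secreted, trimmed and cross-linked. Fibrillar collagens build the load-bearing fibrils, basement membrane collagens form sheets under epithelia and around vessels, and beaded filament collagen (type VI) links cells to the surrounding matrix. Osteoblasts are known for making large amounts of type I collagen, the main protein of bone.

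Type VI collagen dominated the collagen transcripts in every group, and type I collagen was low. COL6A1, COL6A2 and COL6A3 were the 3 genes whose highest group mean reached 100 FPKM. A further 6 genes reached 10 to 100 FPKM, namely COL1A1, COL1A2, COL5A1, COL4A1, COL4A2 and COL17A1. Another 14 reached 1 to 10 FPKM, 8 stayed between 0.1 and 1, and 13 stayed under 0.1 in every group mean. Among those 13 were COL2A1, the cartilage fibril chain, with at most 0.074 FPKM in any library, and COL4A3 and COL4A4, basement membrane chains typical of kidney, with at most 0.032 and 0.087 FPKM. By class, 8 of 11 fibrillar, 7 of 9 basement membrane, 3 of 5 beaded filament, 1 of 3 short-chain, 2 of 10 fibril-associated and 2 of 4 transmembrane genes reached a group mean of 1 FPKM. Neither of the 2 remaining genes, COL26A1 and COL28A1, exceeded 0.039 FPKM in any library.

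**Figure D1:**
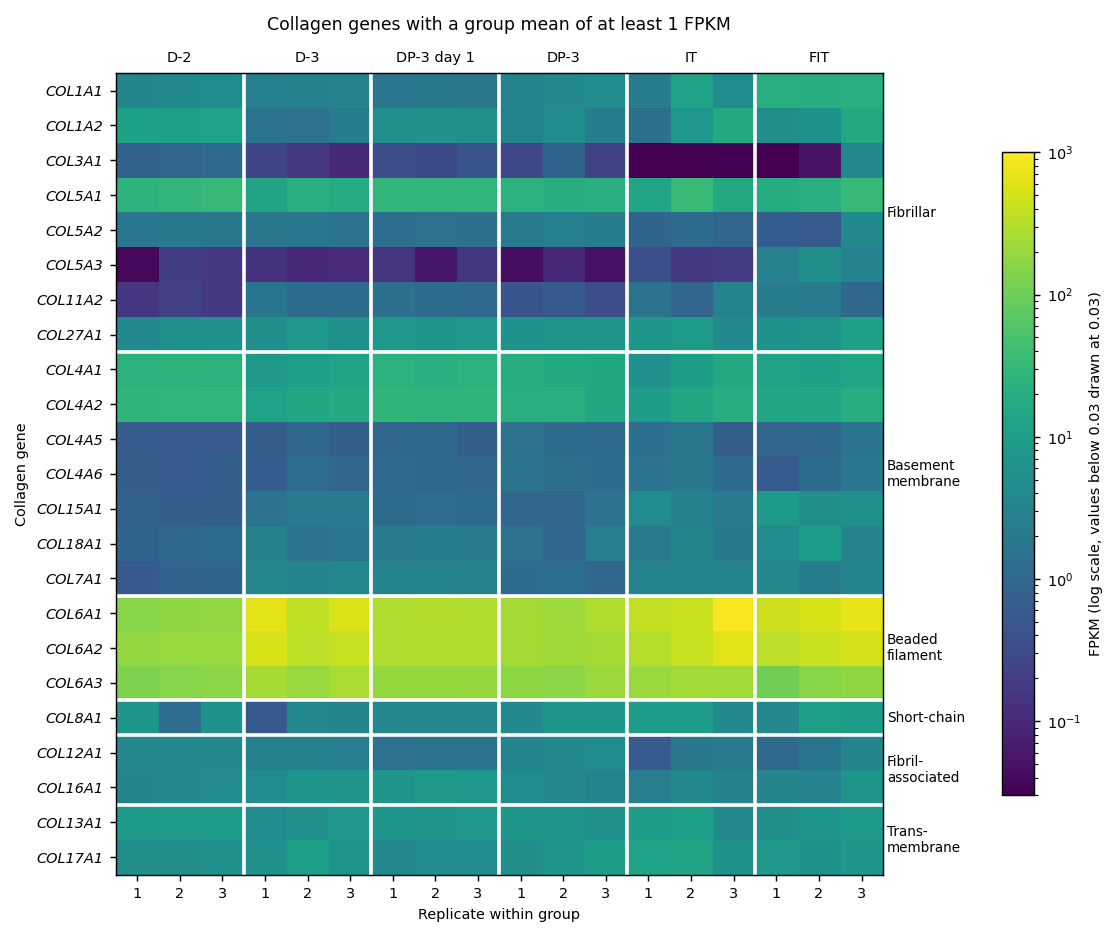
FPKM (colour, log scale) of the collagen genes with a group mean of at least 1 FPKM (rows, ordered by class) in each of the 18 libraries (columns, 3 replicates per group). COL6A1, COL6A2 and COL6A3 lie above 100 FPKM in every library, and COL5A3 is above 3 FPKM in the FIT libraries and at most 0.37 in all others.

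Summed over the 44 genes, collagen FPKM was lowest in D-2. The sum was 607, 660 and 691 in the D-2 libraries, 1517, 1026 and 1349 in D-3, 898, 908 and 901 in DP-3 day 1, and 779, 715 and 859 in DP-3. It was 995, 1240 and 1849 in IT and 1044, 1247 and 1549 in FIT. All D-2 libraries therefore lay below all libraries of the other groups, whereas D-3, IT and FIT overlapped. The mitochondrial share of all FPKM, which enters the scale of every FPKM value, ran from 9.85% to 17.0% in the D-2 libraries and from 23.0% to 24.7% in FIT, with D-3, DP-3 day 1 and IT between 11.97% and 25.2%, and DP-3 replicate 3 stood apart at 34.0% beside 17.7% and 18.5%. Its part in the sums was not tested. Without COL6A1, COL6A2 and COL6A3 the group means were 148 ± 28.0 (SD, n = 3) for FIT, 136 ± 6.60 for D-2, 131 ± 1.65 for DP-3 day 1, 117 ± 25.8 for IT, 111 ± 3.77 for DP-3 and 94.6 ± 14.7 for D-3, so that D-2 was no longer lowest.

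The classes divided this sum differently between groups. Beaded filament genes made up 79.1% ± 0.61 (SD, n = 3) of collagen FPKM in D-2 and 92.4% ± 2.56 in D-3, with FIT at 88.4% ± 0.58, IT at 91.0% ± 2.73, DP-3 at 85.8% ± 1.73 and DP-3 day 1 at 85.5% ± 0.25. The fibrillar share was 7.93% ± 0.21 for D-2, 5.47% ± 0.53 for FIT, 5.16% ± 0.026 for DP-3 day 1, 5.01% ± 0.57 for DP-3, 3.58% ± 1.49 for IT and 2.60% ± 0.96 for D-3. The basement membrane share was 8.65% ± 0.39 in D-2, 6.41% ± 0.16 in DP-3 day 1 and 5.52% ± 1.01 in DP-3, against 2.79% ± 0.74 in D-3, 2.81% ± 0.32 in IT and 3.79% ± 0.65 in FIT. In each of these 3 classes the D-2 libraries did not overlap those of any other group. These shares were not tested, and since they sum to a whole, a rise in COL6 transcripts lowers the other shares.

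Differential expression was tested over all expressed genes, and a DEG had an adjusted p below 0.05 and a fold change of at least 2. Of the 44 collagen genes, 23 had enough signal to be tested in all 7 comparisons, 4 in some and 17 in none. A gene that was expressed in only 1 of the groups could pass this filter through that group alone. In D-2 against FIT, 1 collagen gene was upregulated and 8 were downregulated of 26 tested, where 14.6% of all tested genes were DEGs, 3.83% upward and 10.8% downward. In D-3 against FIT, 0 were up and 4 down of 27, where 6.45% of all genes were DEGs, 4.29% upward. DP-3 against FIT gave 0 up and 5 down of 26, where the background was 4.82%. The downward background was 2.17% in D-3 and 3.16% in DP-3. No collagen gene was a DEG in IT against FIT by edgeR, and the background there was 0%. In that comparison 6 of 24 collagen genes had an unadjusted p below 0.05, against 12.7% of all genes, while DESeq2 called 2, one fit of all libraries 2 and the fit without a filter 1. The same fits called 3.12%, 2.61% and 0.144% of all genes.

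Between cultures, collagen genes moved in both directions. D-3 against D-2 gave 6 up and 4 down of 27 tested, where 18.5% of all genes were DEGs, 14.6% upward and 3.95% downward. DP-3 against D-3 gave 1 up and 3 down of 26, where the background was 9.12%, 7.15% downward. DP-3 against DP-3 day 1 gave 3 up and 3 down of 25, where it was 7.56%, and 11 of the 25 had an unadjusted p below 0.05, against 35.8% of all genes. The median log2 fold change of the tested collagen genes against FIT was -0.55 for D-2, -0.28 for D-3, -0.23 for DP-3 and -0.08 for IT, beside -0.09, 0.02, -0.06 and 0.01 for all tested genes. It was 0.13 in D-3 against D-2, 0.23 in DP-3 against D-3 and 0.08 in DP-3 against day 1, beside 0.11, -0.05 and -0.06. The 4 comparisons with FIT share the FIT libraries and are not independent of each other.

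FIT replicate 3 was the shallowest library and stood apart in several collagen genes, so each count was repeated without it. Without this library D-2 against FIT gave 6 up and 7 down, D-3 against FIT 2 up and 5 down, DP-3 against FIT 3 up and 5 down, and IT against FIT still 0. Of all genes tested in these fits, 5.46% were up and 10.7% down for D-2, 4.68% and 2.44% for D-3, and 3.3% and 4.22% for DP-3. The added genes were COL1A2, COL3A1, COL5A2, COL12A1 and COL14A1 upward in D-2, COL5A2 and COL14A1 upward and COL18A1 downward in D-3, and COL5A2, COL12A1 and COL14A1 upward and COL18A1 downward in DP-3. COL14A1 was at 0.0047 and 0 FPKM in the remaining FIT libraries and at most 0.257 in any library. It passed the filter of 0.1 FPKM through the cultures alone, as did COL3A1 in D-2, so these calls are no independent sign of a difference. COL6A2 in D-2 was lost. In DP-3, COL5A3 was then too low in too many libraries to be tested. Skeletal muscle markers summed to 5.42 FPKM in FIT replicate 3, mostly MYH2 at 3.61, to 1.23 and 0.75 in the other FIT libraries and to at most 0.80 elsewhere. The 8 fibroblast markers summed to 54.6, 64.7 and 83.8 FPKM in FIT and to 57.9 to 128 elsewhere. In FIT replicate 3, DPT was at 4.26 and THY1 at 63.4, the highest of the FIT libraries, and PDGFRA at 12.6, the lowest of them. CLEC3B was at 1.64 to 4.11 in FIT and at most 0.61 elsewhere, and DCN, the defining fibroblast proteoglycan, did not exceed 0.086 in any library. Whether host tissue took part in these differences was not tested.

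**Figure D2:**
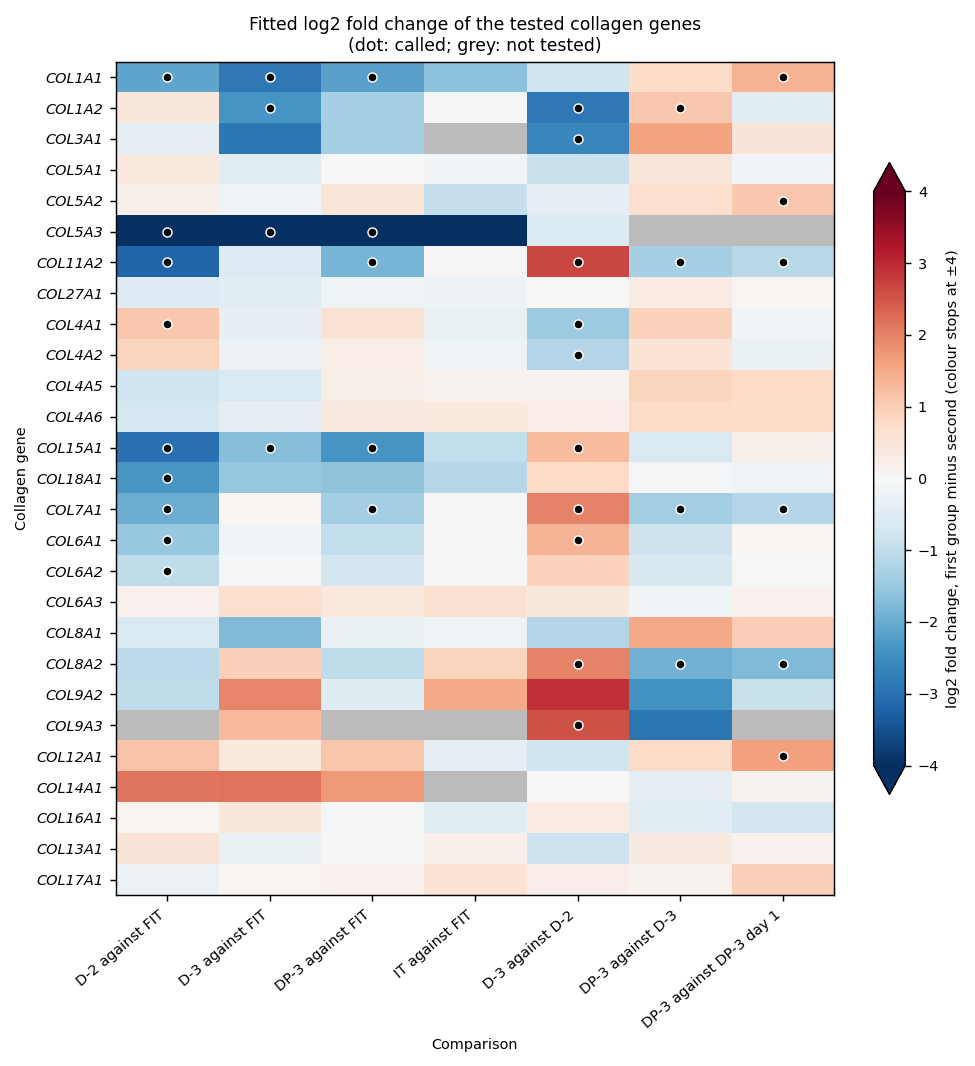
Fitted log2 fold change (colour, first group minus second) of the 27 collagen genes tested in at least 1 of the 7 comparisons, with dots for DEGs and grey for genes not tested. COL1A1, COL5A3 and COL15A1 carry dots against FIT in all 3 columns of cell cultures, and the IT against FIT column has none.

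COL1A1, the alpha 1 chain of type I collagen, was highest in FIT. It (ENSG00000108821, chromosome 17, 50184101 to 50201632, minus strand, positions as in the deposited annotation, which fits GRCh38) was at 21.0, 19.6 and 20.2 FPKM in FIT. It was at 3.56, 4.23 and 4.77 in D-2, 2.69, 2.94 and 3.01 in D-3, and 3.23, 4.11 and 5.02 in DP-3. In DP-3 day 1 it was at 1.79, 1.99 and 1.9, and in IT at 2.53, 12 and 4.61. All FIT libraries lay above all others. COL1A1 was 4.34-fold lower in D-2 (log2 fold change -2.12 ± 0.13 SE, adjusted p = 0.000808), 7.30-fold lower in D-3 (-2.87 ± 0.14, adjusted p = 0.000273) and 4.47-fold lower in DP-3 (-2.16 ± 0.20, adjusted p = 0.00379). In IT the difference of -1.65 ± 0.51 did not pass (adjusted p = 0.264), although the groups did not overlap, and it passed with DESeq2 (adjusted p = 0.0238) and in one fit of all libraries (0.0190). COL1A1 also rose from day 1 to day 14 of printed culture, 2.63-fold (1.39 ± 0.19, adjusted p = 0.0038).

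COL1A2, the partner chain of type I collagen (ENSG00000164692, chromosome 7, 94394895 to 94431227, plus strand), followed another order. It was at 11.5, 11.1 and 11.9 FPKM in D-2, 1.63, 1.52 and 2.51 in D-3, 5.60, 5.76 and 5.58 in DP-3 day 1, and 3.27, 4.73 and 2.39 in DP-3. IT ranged from 1.41 and 7.90 to 17.7, and FIT was at 5.13, 6.39 and 16.9, so that replicate 3 was the highest library in both tumor groups. COL1A2 was 7.24-fold lower in D-3 than in D-2 (log2 fold change -2.86 ± 0.20 SE, adjusted p = 0.000797). Against FIT it was 5.16-fold lower in D-3 (-2.37 ± 0.44, adjusted p = 0.0194). This call was lost without any 1 of the D-3 libraries, with an adjusted p of 0.0522 to 0.0881. The difference in D-2 against FIT (0.44 ± 0.41, adjusted p = 0.447) became a 1.11 higher log2 value without FIT replicate 3 (adjusted p = 0.00311). DP-3 was 2.11-fold higher than D-3 (1.08 ± 0.28, adjusted p = 0.0376) although the libraries overlapped, and of the 6 fits that left out 1 library this call remained in the one without DP-3 replicate 3 (adjusted p up to 0.141 in the other 5). It was also lost in one fit of all libraries (0.228).

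The ratio of the 2 type I chains therefore shifted between groups. COL1A1/COL1A2 was 0.31, 0.38 and 0.40 in D-2 and 0.32, 0.35 and 0.34 in DP-3 day 1. It was 1.65, 1.94 and 1.20 in D-3 and 0.99, 0.87 and 2.10 in DP-3. The tumor groups were at 1.80, 1.52 and 0.26 for IT and 4.09, 3.07 and 1.20 for FIT. Every D-2 and day 1 library was thus at 0.40 or less and every D-3, DP-3 and FIT library at 0.87 or more, with IT on both sides. Over all libraries the ratio spanned 15.7-fold. The ratio of COL4A1 to COL4A2 stayed between 0.59 and 1.04, a span of 1.76-fold, and that of COL6A1 to COL6A2 between 0.87 and 1.44, a span of 1.66-fold. COL5A1/COL5A2 ran from 7.07 to 34.1 and COL4A5/COL4A6 from 0.61 to 1.47. The widest span was that of COL8A1/COL8A2, 71.6-fold, from 0.92 to 66.0 in the libraries where both chains reached 0.1 FPKM. COL8A2 did not exceed 0.632 FPKM in any library. These ratios are descriptions and were not tested.

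**Figure D3:**
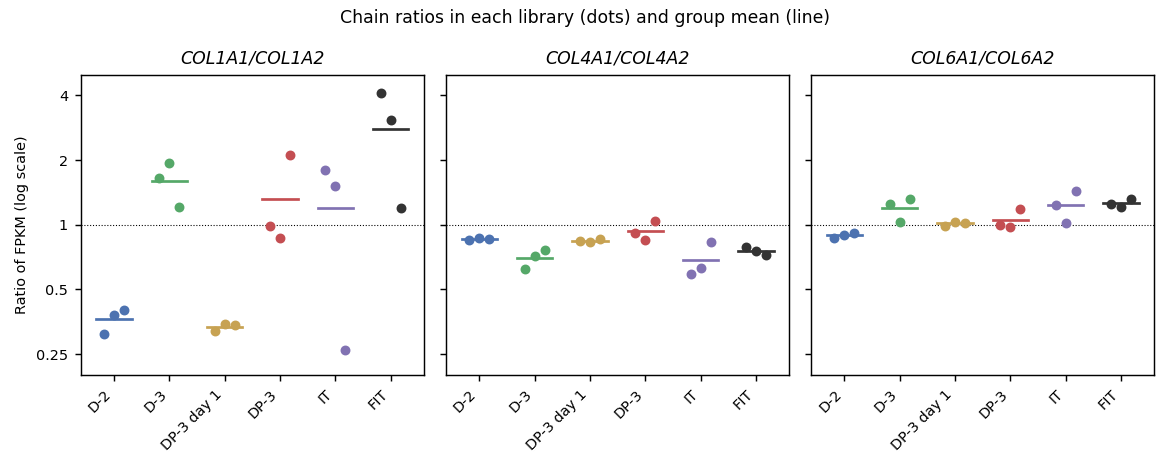
Ratio of the FPKM of chains that assemble together (log axis) in each library (dots) with the group mean (line), for type I, type IV and type VI collagen. The COL1A1/COL1A2 ratio runs from 0.26 to 4.09 while the COL4A1/COL4A2 and COL6A1/COL6A2 ratios stay between 0.59 and 1.44.

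COL5A3, a chain of type V collagen, which sits inside fibrils and controls their width, had the largest gap from FIT of the called genes. COL5A3 (ENSG00000080573, chromosome 19, 9959561 to 10010504, minus strand) was at 3.09, 5.32 and 3.02 FPKM in FIT. In the other 15 libraries it lay between 0.037 and 0.37, the highest being IT replicate 1. It was 24.7-fold lower in D-2 (log2 fold change -4.63 ± 0.63 SE, adjusted p = 0.00353), 35.1-fold lower in D-3 (-5.13 ± 0.37, adjusted p = 0.000931) and 53.6-fold lower in DP-3 (-5.75 ± 0.43, adjusted p = 0.00219). In IT the difference was -3.97 ± 0.43 (adjusted p = 0.0902), with no overlap of the libraries. It passed with DESeq2 (adjusted p = 1.10e-18), without a filter (0.00638) and in one fit of all libraries (0.0014). All DP-3 libraries were below the filter of 0.1 FPKM, so the gene entered that comparison through FIT alone and could not be tested with a FIT library left out.

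The 250 bases before the start of COL5A3 are shown because this gene separated FIT from every culture, and those of COL7A1 because it was a DEG in 5 comparisons. Neither trait was particular to them, as COL1A1 and COL15A1 also separated FIT and COL11A2 was also a DEG in 5. Both come from RefSeq (GRCh38.p14), where 32 of the 44 genes were matched, and are written 5′ to 3′ on the gene's strand (minus). For COL7A1 the RefSeq start lies upstream of the deposited one (48595267), so its window does not adjoin the deposited gene. Capitals mark matches, on either strand, to the GC box GGGCGG, the CCAAT box CCAAT and the TATA box TATAAA.
COL5A3, chr19:10010505-10010754: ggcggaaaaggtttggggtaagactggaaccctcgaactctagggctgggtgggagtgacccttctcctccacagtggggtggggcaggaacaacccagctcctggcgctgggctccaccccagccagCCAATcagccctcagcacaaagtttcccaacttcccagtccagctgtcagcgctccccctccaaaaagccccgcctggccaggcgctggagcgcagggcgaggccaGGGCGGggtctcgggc
COL7A1, chr3:48595330-48595579: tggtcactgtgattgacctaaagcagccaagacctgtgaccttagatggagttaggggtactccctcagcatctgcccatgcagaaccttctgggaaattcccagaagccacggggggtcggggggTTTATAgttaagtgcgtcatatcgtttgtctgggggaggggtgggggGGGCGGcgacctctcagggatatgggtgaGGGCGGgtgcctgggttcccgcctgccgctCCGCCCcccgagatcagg
COL5A3 held 1 GC box and 1 CCAAT box, and COL7A1 held 3 GC boxes and 1 TATA box. Of all 35116 windows in the table, 42.6% held a GC box, 32% a CCAAT box and 10.7% a TATA box in these 250 bases. A match describes the letters and is not a binding site.

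The other type V chains did not follow COL5A3. COL5A1, the most abundant fibrillar collagen transcript (ENSG00000130635, chromosome 9, 134641803 to 134844843, plus strand), was at 24.8, 28.4 and 30.3 FPKM in D-2, 13.3, 21.8 and 18.1 in D-3, 28.2, 28.7 and 28.1 in DP-3 day 1 and 23.6, 20.1 and 20.7 in DP-3. It was at 14.2, 34.3 and 16.5 in IT and 18.7, 20.6 and 31.5 in FIT. The groups overlapped widely and COL5A1 was not a DEG in any comparison. It was closest in D-3 against D-2, where it was 1.87-fold lower (adjusted p = 0.0109) and passed the fold limit only without D-3 replicate 2 (adjusted p = 0.00505).

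COL5A2 was at most 2.65 FPKM in all libraries except FIT replicate 3. It was at 1.77, 2.05 and 1.94 FPKM in D-2, 1.88, 1.81 and 1.57 in D-3, 1.26, 1.49 and 1.38 in DP-3 day 1, and 2.13, 2.65 and 2.42 in DP-3. It was at 0.85, 1.14 and 0.90 in IT and 0.69, 0.605 and 4.39 in FIT, so 1 FIT library was above and 2 were below every other library. COL5A2 rose 2.10-fold from day 1 to day 14 of printed culture (log2 fold change 1.07 ± 0.14 SE, adjusted p = 0.00399), a call that fell below 2-fold without DP-3 day 1 replicate 1 and was lost in one fit of all libraries (adjusted p = 0.164) and with limma at both pseudocounts. Against FIT it was not a DEG (adjusted p of 0.65 to 0.932 in the 4 comparisons). Without FIT replicate 3 its log2 difference was 1.69 in D-2 (adjusted p = 0.0014), 1.36 in D-3 (0.0227) and 2.00 in DP-3 (0.00519).

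COL3A1, the chain of type III collagen of skin and vessel walls, depended on the same library. It was at 0.00, 0.052 and 3.94 FPKM in FIT and at 0.0067, 0.014 and 0.032 in IT. It was at 0.77, 0.90 and 1.04 in D-2, 0.26, 0.17 and 0.10 in D-3, 0.35, 0.31 and 0.48 in DP-3 day 1 and 0.29, 0.88 and 0.23 in DP-3. COL3A1 was 6.07-fold lower in D-3 than in D-2 (log2 fold change -2.60 ± 0.37 SE, adjusted p = 0.00355), a call that was lost in one fit of all libraries (adjusted p = 0.146). D-2 against FIT gave -0.35 ± 1.71 (adjusted p = 0.893), and 5.20 without FIT replicate 3 (adjusted p = 0.0153), where the remaining FIT libraries were at or near 0 and the fitted value is no measure of size.

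COL11A2, a chain of type XI collagen best known from cartilage, was a DEG in 5 comparisons. It (ENSG00000204248, chromosome 6, 33162681 to 33192499, minus strand) was at 0.15, 0.21 and 0.18 FPKM in D-2, 1.75, 1.21 and 1.18 in D-3, 1.39, 1.18 and 1.04 in DP-3 day 1, and 0.49, 0.57 and 0.35 in DP-3. IT was at 1.68, 0.91 and 3.14 and FIT at 2.43, 2.16 and 1.0. D-2 lay below all other libraries and DP-3 lay between D-2 and the rest. COL11A2 was 9.22-fold lower in D-2 than in FIT (log2 fold change -3.20 ± 0.38 SE, adjusted p = 0.00254) and 6.36-fold higher in D-3 than in D-2 (2.67 ± 0.27, adjusted p = 0.00158). DP-3 was lower than FIT (-1.87 ± 0.37, adjusted p = 0.029), than D-3 (-1.34 ± 0.29, 0.0225) and than day 1 (-1.10 ± 0.23, 0.0161). These 3 calls were weaker. Of the fits that left out 1 library, DP-3 against FIT remained in the one without FIT replicate 3 (adjusted p of 0.0772 to 0.0964 in the other 5). DP-3 against D-3 was lost without D-3 replicate 1 (0.0809), D-3 replicate 3 (0.0656), DP-3 replicate 1 (0.0633) or DP-3 replicate 3 (0.0567). The day comparison was lost without day 1 replicate 1 (0.0634) or 2 (0.0545), and without DP-3 replicate 3 fell below 2-fold. It was also lost in one fit of all libraries (0.0638). COL27A1, which lies outside the rule for genes described one by one, stayed at 4.20 to 11.4 FPKM and was not a DEG.

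**Figure D4:**
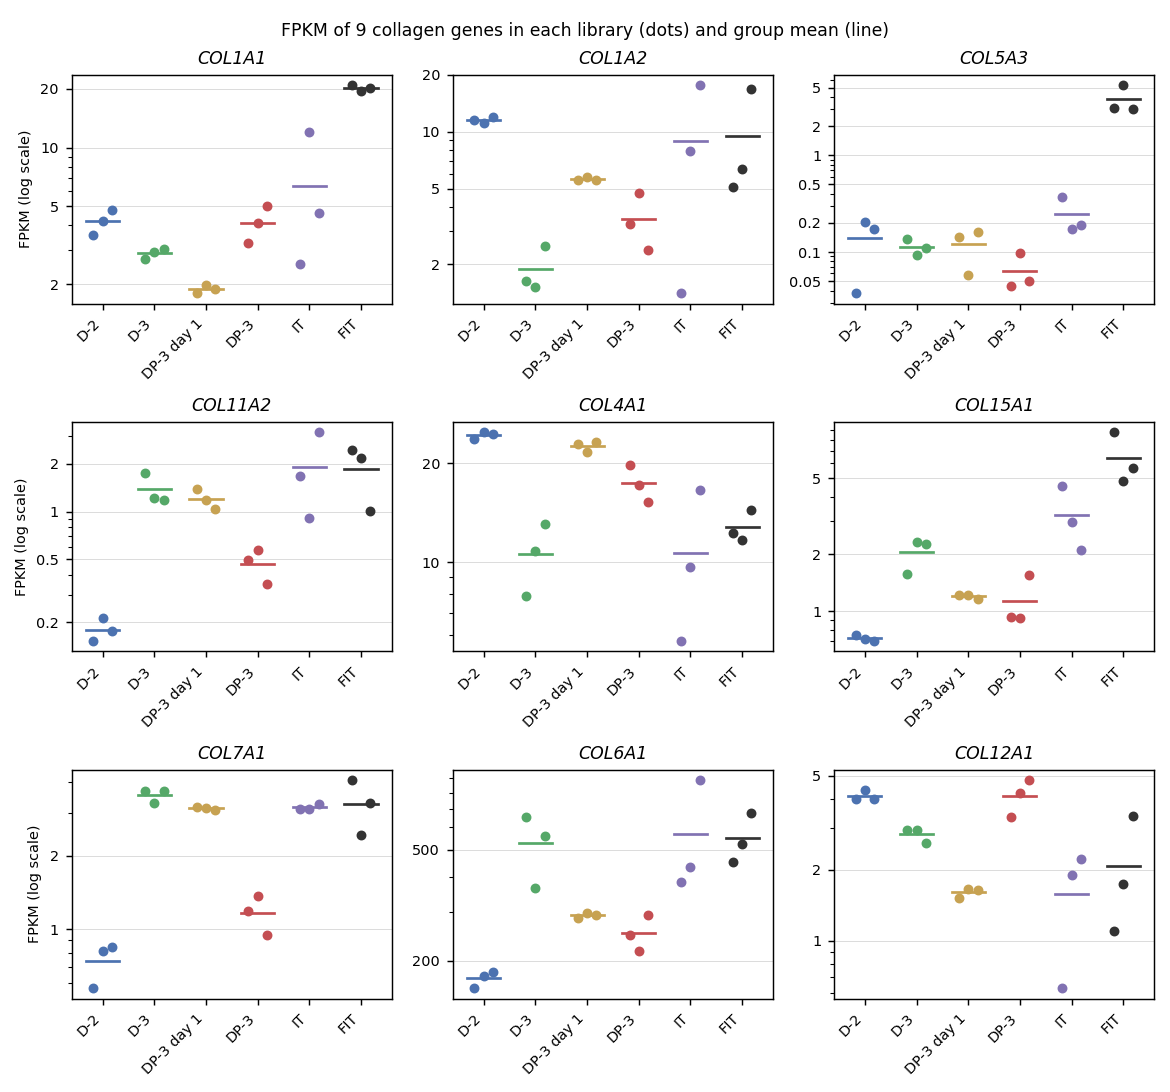
FPKM (log axis) of 9 collagen genes in each library (dots) with the group mean (line). COL1A1 and COL5A3 are highest in the 3 FIT libraries, COL7A1 and COL11A2 are lowest in D-2 and next lowest in DP-3, and COL4A1 is highest in D-2 and DP-3 day 1.

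Among basement membrane genes, the main type IV chains ran opposite to COL15A1, COL18A1 and COL7A1 in D-2. COL4A1 (ENSG00000187498, chromosome 13, 110148963 to 110307157, minus strand) was at 23.7, 24.8 and 24.5 FPKM in D-2, 7.91, 10.9 and 13.0 in D-3, 22.8, 21.6 and 23.2 in DP-3 day 1 and 19.7, 17.2 and 15.3 in DP-3. It was at 5.78, 9.71 and 16.5 in IT and 12.3, 11.7 and 14.4 in FIT. D-2 and day 1 lay above all other libraries. COL4A1 was 2.12-fold higher in D-2 than in FIT (log2 fold change 1.08 ± 0.10 SE, adjusted p = 0.00184) and 2.73-fold lower in D-3 than in D-2 (-1.45 ± 0.18, adjusted p = 0.00253). The call against FIT fell below 2-fold with limma on log2(FPKM + 0.1) (adjusted p = 0.00911) and on log2(FPKM + 1) (0.00358).

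COL4A2 (ENSG00000134871, chromosome 13, 110305812 to 110513209, plus strand), its partner in the network, was at 27.8, 28.5 and 28.6 FPKM in D-2, 12.8, 15.1 and 17.1 in D-3, 27.2, 26.1 and 27.2 in DP-3 day 1 and 21.5, 20.2 and 14.7 in DP-3. It was at 9.81, 15.5 and 19.9 in IT and 15.7, 15.5 and 19.9 in FIT, so the order of the groups matched that of COL4A1. COL4A2 was 2.24-fold lower in D-3 than in D-2 (log2 fold change -1.17 ± 0.13 SE, adjusted p = 0.00192) and 1.85-fold higher in D-2 than in FIT (adjusted p = 0.00328), under the fold limit. The D-3 against D-2 call fell below 2-fold with limma on log2(FPKM + 0.1) (adjusted p = 0.00843) and on log2(FPKM + 1) (0.00408). The 2 genes face away from each other, with starts 127 bases apart in RefSeq, and their models overlap in the deposited annotation. The kit kept the strand of the RNA, but whether counting used it is not stated, so reads in the overlap may not be told apart.

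COL15A1 and COL18A1 encode collagens of basement membrane zones whose ends can be cut off as free fragments, endostatin in the case of COL18A1. COL15A1 was at 8.72, 4.87 and 5.64 FPKM in FIT and 4.57, 2.96 and 2.09 in IT. It was at 0.75, 0.71 and 0.70 in D-2, 1.57, 2.32 and 2.25 in D-3, 1.21, 1.22 and 1.17 in DP-3 day 1 and 0.93, 0.92 and 1.55 in DP-3. Every FIT library was above every other library. COL15A1 was 7.93-fold lower in D-2 (log2 fold change -2.99 ± 0.22 SE, adjusted p = 0.00137), 3.24-fold lower in D-3 (-1.70 ± 0.26, 0.0104) and 5.09-fold lower in DP-3 (-2.35 ± 0.31, 0.0122), and 2.38-fold higher in D-3 than in D-2 (1.25 ± 0.20, 0.00477). The D-3 call was lost without D-3 replicate 3 (adjusted p = 0.0528) and the DP-3 call without DP-3 replicate 1 (0.0558). In IT the difference was -0.99 ± 0.31 (adjusted p = 0.274).

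COL18A1 was at 4.59, 9.12 and 3.05 FPKM in FIT, 0.86, 0.97 and 1.19 in D-2, 2.86, 1.58 and 1.76 in D-3, 2.09, 2.45 and 2.20 in DP-3 day 1, 1.48, 0.91 and 2.61 in DP-3 and 2.25, 3.40 and 2.04 in IT. It was 5.06-fold lower in D-2 than in FIT (log2 fold change -2.34 ± 0.41 SE, adjusted p = 0.00745). D-3 (-1.52 ± 0.43, adjusted p = 0.066) and DP-3 (-1.62 ± 0.51, 0.0864) did not overlap FIT but did not pass, and both passed without FIT replicate 3 (0.0329 and 0.0497). With all libraries kept, both passed in 3 of the 7 alternatives. For D-3 and DP-3 these were DESeq2 (0.00416 and 0.00681), no filter (0.0186 and 0.035) and one fit of all libraries (0.0169 and 0.014). Endothelial markers bear on genes of vessel walls: PECAM1 was at 2.93 to 5.01 FPKM in the FIT and IT libraries and 0.79 to 1.80 in the others, and CDH5 at 0.32 to 1.34 against at most 0.15, and TEK at 0.091 to 0.58 against at most 0.16. The other 4 of the 7 markers did not follow: TIE1, the most abundant, was at 22.4 to 44.7 FPKM with its highest group in DP-3 day 1, EMCN was at 0.23 to 0.48 in DP-3 and at most 0.21 in FIT, and KDR and VWF did not exceed 0.050 and 0.17 in any library. The list summed to 32.1 to 44.4 FPKM in FIT, 33.5 to 48.7 in IT and 24.4 to 46.9 elsewhere. Their part in these differences was not tested.

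COL7A1, the anchoring fibril collagen that ties basement membranes to the tissue below (ENSG00000114270, chromosome 3, 48564073 to 48595267, minus strand), was low in D-2 and DP-3 alone. It was at 0.57, 0.81 and 0.85 FPKM in D-2 and 1.19, 1.36 and 0.95 in DP-3. It was at 3.69, 3.29 and 3.67 in D-3, 3.16, 3.15 and 3.07 in DP-3 day 1, 3.12, 3.12 and 3.27 in IT and 4.08, 2.43 and 3.29 in FIT. No D-2 or DP-3 library reached any library of the other 4 groups. COL7A1 was 4.0-fold higher in D-3 than in D-2 (log2 fold change 2.00 ± 0.18 SE, adjusted p = 0.00134), 2.62-fold lower in DP-3 than in D-3 (-1.39 ± 0.17, 0.00568) and 2.23-fold lower in DP-3 than on day 1 (-1.16 ± 0.13, 0.00253). Against FIT it was 3.92-fold lower in D-2 (-1.97 ± 0.23, adjusted p = 0.00238) and 2.55-fold lower in DP-3 (-1.35 ± 0.21, 0.0161). The DP-3 against FIT call was lost without DP-3 replicate 1 (0.069), DP-3 replicate 3 (0.0527) or FIT replicate 1 (0.0577). The differences in D-3 (0.07 ± 0.19, adjusted p = 0.87) and IT (-0.03 ± 0.19, 0.968) did not pass. COL4A5 and COL4A6, the remaining expressed type IV chains, stayed at 0.605 to 1.97 FPKM and were not DEGs.

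Of the type VI genes, COL6A1 was higher in Matrigel culture than in flat culture and COL6A3 was not a DEG. COL6A1 (ENSG00000142156, chromosome 21, 45981769 to 46005050, plus strand) was at 160, 177 and 183 FPKM in D-2, 656, 365 and 559 in D-3, 285, 297 and 292 in DP-3 day 1 and 248, 217 and 292 in DP-3. It was at 383, 432 and 887 in IT and 451, 522 and 676 in FIT. D-2 lay below every other library, and printed tissue lay between D-2 and the D-3, IT and FIT libraries. COL6A1 was 2.56-fold higher in D-3 than in D-2 (log2 fold change 1.35 ± 0.21 SE, adjusted p = 0.00443) and 2.85-fold lower in D-2 than in FIT (-1.51 ± 0.17, 0.0022). DP-3 was 1.99-fold lower than FIT (adjusted p = 0.0402), just under the fold limit, and 1.78-fold lower than D-3 (adjusted p = 0.0583), which passed without D-3 replicate 2 (0.0166) and with limma on log2(FPKM + 1) (0.036).

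COL6A2 (ENSG00000142173, chromosome 21, 46098112 to 46132848, plus strand) was at 184, 198 and 200 FPKM in D-2, 527, 356 and 423 in D-3, 289, 288 and 285 in DP-3 day 1, 247, 223 and 247 in DP-3, 312, 424 and 616 in IT and 361, 430 and 516 in FIT. The order of the groups was close to that of COL6A1. It was 2.02-fold lower in D-2 than in FIT (log2 fold change -1.01 ± 0.15 SE, adjusted p = 0.00413). This call fell below 2-fold when D-2 replicate 1 or FIT replicate 3 was left out. D-3 was 1.88-fold higher than D-2 (adjusted p = 0.00572), which passed 2-fold without D-3 replicate 2 (0.00152) and with limma on log2(FPKM + 0.1) (0.0072) or log2(FPKM + 1) (0.00408). COL6A3, the third chain of the molecule, is named here although it lies outside the rule. It stayed at 105 to 266 FPKM and was not a DEG in any comparison, with log2 differences of -0.18 to 0.65.

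Of the short-chain, fibril-associated and transmembrane collagens, COL12A1 was the DEG above 1 FPKM. COL12A1, which coats type I fibrils, was at 3.98, 4.34 and 4.0 FPKM in D-2, 2.96, 2.93 and 2.60 in D-3, 1.52, 1.66 and 1.64 in DP-3 day 1 and 3.35, 4.22 and 4.80 in DP-3. It was at 0.63, 1.9 and 2.22 in IT and 1.1, 1.75 and 3.38 in FIT. It rose 3.10-fold from day 1 to day 14 of printed culture (log2 fold change 1.63 ± 0.16 SE, adjusted p = 0.00205), with no overlap between the days. Against FIT, D-2 (1.14 ± 0.36, adjusted p = 0.0507) and DP-3 (1.12 ± 0.38, 0.105) did not pass, and both did without FIT replicate 3 (0.00434 and 0.0183). With all libraries kept, D-2 passed in 4 of the 7 alternatives. These were DESeq2 (0.00808), no filter (0.0235), one fit of all libraries (0.0346) and the replicate block (0.0366). DP-3 passed in 2 of the 7, DESeq2 (0.0222) and no filter (0.0405).

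COL16A1, COL8A1, COL13A1 and COL17A1 were not DEGs in any comparison. COL16A1 was at 2.58 to 7.93 FPKM, with its highest group in DP-3 day 1 (7.38, 7.93 and 7.76) and 4.55, 3.78 and 3.15 in DP-3. The decrease was 1.67-fold (adjusted p = 0.00808), under the fold limit. COL8A1, a chain of vessel and corneal networks, ranged from 0.58 to 10.8 FPKM and was uneven within groups, with 7.4, 1.26 and 6.22 in D-2 and 0.58, 3.80 and 3.38 in D-3. Its day 1 to day 14 difference in printed culture, 1.97-fold higher (adjusted p = 0.016), passed the fold limit without DP-3 replicate 1 (0.00592) and without a filter on low values (0.00454). COL13A1, a membrane-anchored collagen of cell contacts, was at 3.98 to 10.6 FPKM, and its 1.79-fold lower level in D-3 than in D-2 (adjusted p = 0.0124) passed 2-fold only without D-3 replicate 3 (0.0127). COL17A1, the hemidesmosome collagen of skin, was at 4.35 to 13.1 FPKM. It was 1.92-fold higher at day 14 than at day 1 of printed culture (adjusted p = 0.0352), and passed 2-fold only without DP-3 replicate 1 (0.0155). The keratinocyte marker KRT14 was at 10.4, 1.67 and 0.115 FPKM in FIT and at most 0.336 elsewhere. KRT5 was at 0.64 to 2.04 in FIT and at most 0.10 elsewhere, and KRT1 and DSG3 did not exceed 0.075 and 0.079 in any library. KRT10, the most abundant of the list, was at 16.2 to 30.2 FPKM over all libraries. KRT15 was at 8.01, 4.98 and 2.43 in FIT, 2.06 to 5.98 in IT and 0.70 to 2.38 elsewhere. The 6 markers summed to 49.3, 32.9 and 23.95 FPKM in FIT and to 17.8 to 29.6 elsewhere. Their part in COL17A1 or COL7A1 levels was not tested.

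A further 2 DEGs stayed under 1 FPKM and are named although they lie outside the rule. COL8A2 was at 0.095, 0.11 and 0.12 FPKM in D-2, 0.63, 0.32 and 0.61 in D-3, 0.43, 0.51 and 0.50 in DP-3 day 1, 0.18, 0.11 and 0.062 in DP-3, 0.51, 0.41 and 0.49 in IT and 0.28, 0.22 and 0.26 in FIT. D-2 and DP-3 thus lay below FIT, and D-3 and IT above it. COL8A2 was 3.95-fold higher in D-3 than in D-2 (log2 fold change 1.98 ± 0.38 SE, adjusted p = 0.00829), and lower in DP-3 than in D-3 (-1.93 ± 0.50, 0.0384) and than on day 1 (-1.76 ± 0.41, 0.0229). The last 2 calls were lost in 5 and 4 of the 6 fits that left out 1 library, with adjusted p up to 0.121 and 0.0729. COL9A3 reached 0.30, 0.11 and 0.17 FPKM in D-3 and at most 0.035 in D-2, a 5.8-fold difference (adjusted p = 0.0118) in a gene that passed the filter through D-3 alone. It could not be tested with a D-3 library left out and was lost in one fit of all libraries (0.0888). In abundant genes the 3 DP-3 day 1 libraries had a median absolute log2 ratio of 0.0907 to 0.0935 between libraries, beside 0.0897 to 0.112 in D-2. How much of this is sampling noise was not measured, as the deposited values are estimated counts and not counts of read pairs.

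Genes that make, trim, cross-link, bind and sense collagen were examined as 54 genes in 4 lists. Of these, 46 were tested in each comparison. Against FIT, 10 were upregulated and 7 downregulated for D-2, 7 and 6 for D-3, 5 and 4 for DP-3, and 0 and 0 for IT. D-3 against D-2 gave 3 up and 3 down, DP-3 against D-3 gave 2 and 1, and DP-3 against day 1 gave 4 and 0. As a share of the 46, DEGs made up 37.0% for D-2, 28.3% for D-3 and 19.6% for DP-3 against FIT, beside 14.6%, 6.45% and 4.82% of all genes, and 13.0% in D-3 against D-2, beside 18.5%. The shares of 6.52% in DP-3 against D-3 and 8.70% in DP-3 against day 1 were near the 9.12% and 7.56% of all genes. The lists were chosen with earlier results of these data known, so the counts are descriptions.

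Enzymes and chaperones of collagen synthesis were DEGs only in the upward direction in the comparisons with FIT, 4 of 21 tested for D-2, 4 for D-3 and 2 for DP-3, where 3.83%, 4.29% and 1.66% of all genes were upregulated and 10.8%, 2.17% and 3.16% downregulated. P3H2, a prolyl 3-hydroxylase that prefers type IV collagen, was at 17.4, 16.2 and 16.7 FPKM in D-2, 20.4, 13.0 and 12.3 in DP-3 and 1.92, 1.32 and 6.86 in FIT. It was 5.65-fold higher in D-2 (adjusted p = 0.0169) and 4.99-fold higher in DP-3 (0.0482) than in FIT, 3.06-fold lower in D-3 than in D-2 (0.0014), 2.71-fold higher in DP-3 than in D-3 (0.0113) and 2.57-fold higher than on day 1 (0.00412). TMEM38B, an endoplasmic reticulum ion channel whose loss causes a brittle bone disease, was at 1.98, 1.65 and 2.70 FPKM in FIT and 4.46 to 7.29 in the other libraries. It was 3.03-fold higher in D-2 (adjusted p = 0.00413), 3.13-fold in D-3 (0.00596) and 2.91-fold in DP-3 (0.0123). P4HA1, the proline hydroxylase subunit that stabilises the triple helix, was 2.08-fold higher in D-3 (adjusted p = 0.0214). MIA2, which helps to load collagen for export, was 2.30-fold higher in D-3 than in D-2 (0.00203).

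Processing genes moved in both directions against FIT. The procollagen proteases BMP1 and ADAMTS14 were downregulated in the 3 cell cultures of day 14. BMP1, named with LOX after their values were seen, was 2.43-fold lower in D-2 (adjusted p = 0.00184), 2.54-fold in D-3 (0.00417) and 2.79-fold in DP-3 (0.00559). It was at 18.7, 20.2 and 24 FPKM in FIT, 15.6 to 16.2 in DP-3 day 1 and 6.53 to 9.18 elsewhere. ADAMTS14, which removes the amino end of fibrillar procollagens, was at 11.9, 13.6 and 15.0 in FIT, 7.88, 11.1 and 3.41 in IT, and 0.44, 0.56 and 0.78 in D-2. It was 20.5-fold lower in D-2 (adjusted p = 0.000744), 5.01-fold in D-3 (0.00165) and 3.15-fold in DP-3 (0.00455), 3.98-fold higher in D-3 than in D-2 (0.00324) and 2.51-fold higher in DP-3 than on day 1 (0.00211). PCOLCE2, an enhancer of such cleavage, was higher than FIT in D-2 (4.03-fold, 0.00168), D-3 (2.98-fold, 0.00575) and DP-3 (2.95-fold, 0.0106). LOX, the enzyme that begins cross-linking, was 2.69-fold higher in D-2 (0.00414) and 2.96-fold higher in D-3 (0.00917) than in FIT, and ADAMTS3 was 2.79-fold lower in D-3 than in D-2 (0.00239).

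Of the collagen-binding matrix proteins, BGN, a small proteoglycan of bone and fibrils, was downregulated in the same 3 cultures. BGN was at 54.0, 67.5 and 17.8 FPKM in FIT and 24.8, 26.3 and 49.6 in IT, against 2.40 to 12.9 in the other 12 libraries. It was 9.56-fold lower in D-2 (adjusted p = 0.00411), 5.37-fold in D-3 (0.0241) and 7.98-fold in DP-3 (0.033). THBS1, a glycoprotein of cell surfaces and matrix, was 4.85-fold higher in D-2 than in FIT (0.00276), 8.10-fold lower in D-3 than in D-2 (0.000745) and 2.82-fold higher in DP-3 than in D-3 (0.00645). FMOD, fibromodulin, reached 3.55, 1.67 and 1.77 FPKM in D-3 and at most 1.28 elsewhere. It was 15.0-fold higher than in FIT (0.0325), 9.32-fold higher than in D-2 (0.00243) and 5.32-fold lower in DP-3 than in D-3 (0.0218). FN1, fibronectin, was 2.77-fold higher in DP-3 than on day 1 (0.00684) and 2.93-fold lower in D-2 than in FIT (0.0149).

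Among receptors, ITGA10, a collagen-binding integrin chain of cartilage and bone, was at 49.6, 50.2 and 29.3 FPKM in FIT, 23.3, 29.5 and 15.9 in IT, 17.3 to 18.6 in DP-3 day 1 and 5.11 to 10.1 in the day 14 cell cultures. It was 4.65-fold lower in D-2 (adjusted p = 0.00193), 6.53-fold in D-3 (0.00348) and 4.30-fold in DP-3 (0.00791). ITGA2, another collagen-binding integrin chain, was higher in D-2 (2.79-fold, 0.0166) and DP-3 (2.87-fold, 0.0434) than in FIT, with 40.7, 18.8 and 35.7 FPKM in D-2 and 8.64, 15.6 and 13.6 in FIT. ITGA1 was 2.28-fold higher in DP-3 than on day 1 (0.00307). The tyrosine kinase receptors DDR1 and DDR2 were not DEGs.

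**Figure D5:**
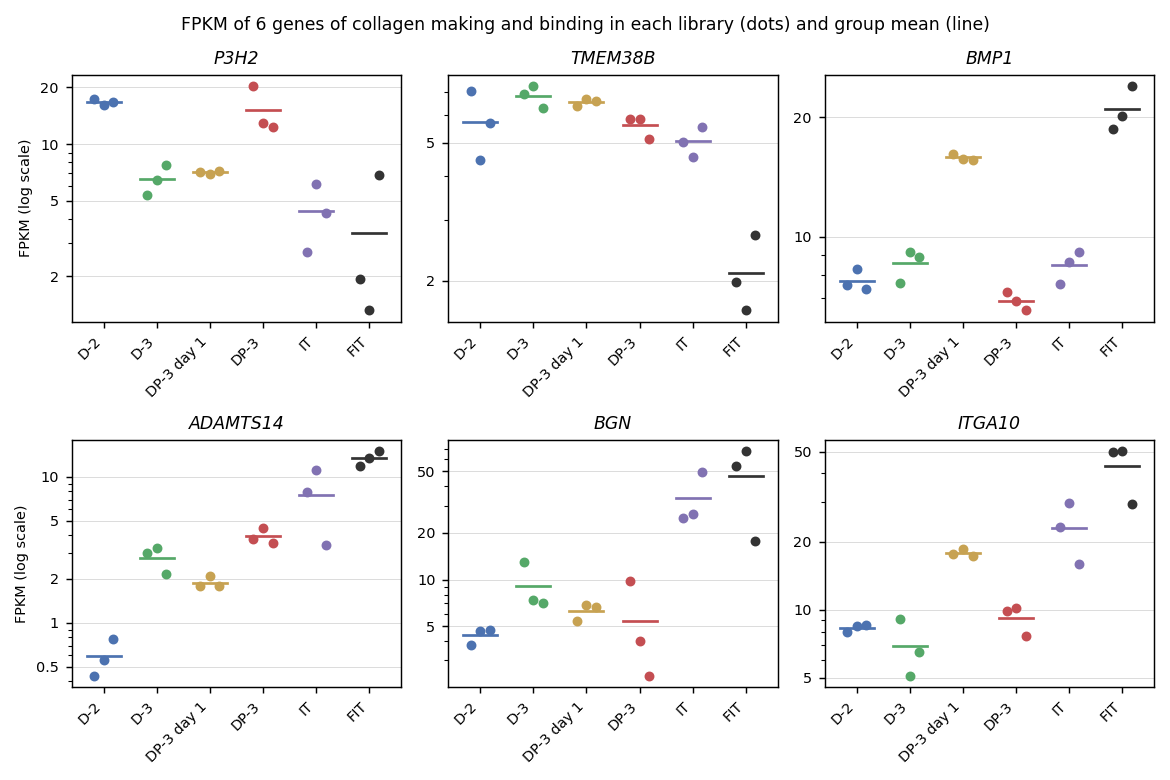
FPKM (log axis) of 6 genes that make, trim or bind collagen in each library (dots) with the group mean (line). TMEM38B is lowest and BMP1, ADAMTS14 and ITGA10 are highest in the FIT group mean, while P3H2 is highest in D-2 and DP-3.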

How the data were processed

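RNA of 18 libraries was sequenced after poly(A) selection with a strand-keeping kit. The submitters' processing notes name cutadapt 1.9, HISAT2 2.0.4, StringTie 1.3.4d, edgeR and DESeq2. Build, annotation and use of strand are not given in the sources used here; all 44 collagen positions overlap those of GENCODE 29 (GRCh38). The authors deposited FPKM values and estimated counts per gene. The estimated counts, of which 35.0% of the low ones are multiples of 4, were rounded to whole numbers.

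Each of 7 comparisons was fitted on its own 6 libraries with edgeR 4.0.16 (quasi-likelihood test, TMM scaling, R 4.3.3) over genes with at least 0.1 FPKM in at least 3 libraries. A DEG had a Benjamini-Hochberg adjusted p below 0.05, taken over all genes tested, and a 2-fold change. All adjusted p-values are from this test unless another is named. Alternatives were DESeq2 1.42.0, limma 3.58.1 on log2(FPKM + 0.1) and log2(FPKM + 1), no filter, median-of-ratios scaling, one fit of all 18 libraries, a replicate block and leaving out each library. The scripts were tested on simulated data.

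Collagen genes were described one by one, 19 in all, where a group mean reached 1 FPKM and the gene was a DEG or among the 2 highest of its class. In each list of matrix genes the 2 DEGs with the largest change per comparison and a group mean of at least 1 FPKM were named. The members and lists were chosen with earlier results of these data known. Total estimated counts were 23721666 to 79082786 per library, and the number of libraries limits the precision.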

Additional observations from a re-analysis of the deposited data

Results flagged for a closer look

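COL8A2, a low short-chain collagen, had groups whose libraries all lay on opposite sides of FIT. The log2 difference was 1.98 for D-3 minus D-2, which was tested directly and passed, and -1.96 for DP-3 minus D-3, as the difference of both comparisons with FIT. Tested directly, DP-3 minus D-3 was -1.93 and passed, but it was lost in 5 of the 6 fits that left out 1 library. The difference was 1.94 for IT minus D-2 and 1.88 for IT minus DP-3, and these 2 were not tested. No COL8A2 library exceeded 0.632 FPKM.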

How the results depend on the processing

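The number of collagen DEGs against FIT was 9 for D-2, 4 for D-3, 5 for DP-3 and 0 for IT, and it was 10 in D-3 against D-2, 4 in DP-3 against D-3 and 6 in DP-3 against day 1. Of all tested genes, 14.6%, 6.45%, 4.82%, 0%, 18.5%, 9.12% and 7.56% were DEGs in the same order. Without a filter the number of collagen DEGs was 8 in DP-3 against FIT, 1 in IT against FIT and 7 in DP-3 against D-3. That fit called 3.64% and 0.144% of all genes against FIT, and 448 up and 1452 down of 36925 in DP-3 against D-3. With DESeq2 the number of collagen DEGs was 8, 2 and 7 in the same comparisons, and one fit of all 18 libraries gave 2 in IT against FIT. DESeq2 called 9.45% and 3.12% of all genes against FIT, and 593 up and 2172 down of 20682 in DP-3 against D-3. The one fit called 2.61% of all genes in IT against FIT. With limma on log2(FPKM + 1) the number of collagen DEGs was 6 in D-3 against D-2, 2 in DP-3 against D-3 and 0 in DP-3 against day 1. This setting called 995 up and 170 down of 20231 genes, 86 and 651 of 20682, and 69 and 424 of 20774. The main fit called 2946 and 800, 409 and 1478, and 375 and 1196 of the same genes. In DP-3 against day 1, DESeq2 gave 6 collagen DEGs, with 479 up and 1563 down of 20774 genes. There 11 of 25 collagen genes had an unadjusted p below 0.05 with edgeR, beside 35.8% of all genes. The cause of these differences was not tested. Leaving out 1 library gave 8 to 13, 2 to 7, 2 to 8, 0 to 0, 9 to 11, 1 to 6 and 3 to 8 collagen DEGs, in the order given first. The calls over all genes moved between these fits as well. D-3 against FIT gave 139 up and 101 down of 20403 genes without D-3 replicate 3, and 983 and 512 of 20993 without FIT replicate 3. DP-3 against FIT gave 42 and 48 of 19400 without DP-3 replicate 1, and 631 and 807 of 19123 without FIT replicate 3. Of 38 called pairs of gene and comparison, 24 held in every such fit and 19 in every other alternative, and none reversed. Same-numbered libraries did not deviate together (correlations of -0.0375 to 0.0610). With 3 libraries per group these values cannot exclude pairs, such as tumors shared by IT and FIT. The replicate block gave 9, 5, 3, 0, 10, 3 and 5 collagen DEGs. In DP-3 against FIT, where it gave 3, it called 68 up and 96 down of 20039 genes. Low genes such as COL8A2 and COL9A3 rest on few reads.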
